A study of Mus musculus with 96 samples.

Results

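The glutathione transferases (Gst), UDP-glucuronosyltransferases (Ugt) and cytosolic sulfotransferases (Sult) were followed across 4 mouse tissues after sleep deprivation. The members were the features whose Ensembl identifier carries, in GENCODE M21, a symbol of the Gsta, Gstm, Gstp, Gstt, Gsto, Gstk or Gstz classes, of Ugt1, Ugt2 or Ugt3, or of Sult, each followed by its gene number. This rule on names found 64 genes among 54833 features, with 22 Gst, 21 Ugt and 21 Sult genes, and it used no measured value. Sult2a5, Ugt2a1 and Ugt2a2 had 0 counts in all 96 libraries.

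Liver, kidney, forebrain and cerebellum came from male wild-type C57BL/6 mice aged 6 to 8 weeks, which were kept in constant darkness after entrainment to a light and dark cycle. Sleep-deprived mice (SD) walked for 10 h of their resting phase in a slowly turning drum that held food and water, and control mice (CON) were left alone. Loss of sleep and forced walking therefore cannot be told apart. Each tissue and condition had 12 libraries, made of 2 libraries at each of 6 circadian times (CT) that were 4 h apart from CT4 to CT24. In SD these were the next 6 times after the deprivation, so circadian time and time since deprivation cannot be told apart there. A change with SD is an average over these times. The study calls the 2 libraries of a time biological replicates. For this experiment the number of mice behind a library, and whether its tissues came from the same mice, are not given in the sources used here.

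These enzymes carry out the conjugation step of detoxification. They attach glutathione, glucuronic acid or sulfate to drugs, hormones, bilirubin, bile acids and reactive products of metabolism, which makes the products more soluble and ready for export. The liver is the main site of this chemistry, the kidney proximal tubule has a set of its own, and the brain has a few members.

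Library depth was 24.8 to 58.5 M counts. The tissue labels were checked against marker genes, and the summed hepatocyte markers were between 69174.6 and 92729.3 CPM (counts scaled to a library total of 1 M) in control liver against 66.5 to 202.9 CPM in control kidney. In 20 of 24 kidney libraries, the condition or time in the sample title was not the one in the sample characteristics. Groups followed the titles, as in the column names of the count table. One kidney library, CON CT20 replicate 1, held 91.4 CPM of Alb (albumin, made by hepatocytes) where the other 23 kidney libraries held 1.69 to 12.6 CPM, and results that rest on it are given with and without it. In cerebellum, CON CT8 replicate 1 stood apart, with a median correlation of 0.88 with the other 23 cerebellum libraries over 17191 features, where the next lowest library had 0.99. Cerebellum results are therefore also given without it.

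Control liver held the widest set of these genes. At or above 1 CPM per kb of exon, a scale that allows genes of different length to be compared, stood 39 of the 64 members in control liver, 28 in control kidney, 11 in forebrain and 10 in cerebellum. Together the 64 genes took 1.01% of all counts in control liver. By family, 19 Gst, 14 Ugt and 6 Sult genes reached this level in liver, and 16, 8 and 4 did so in kidney.

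By these counts, the most abundant liver member was Gstm1, a mu class transferase, at 1265 ± 540 CPM per kb (mean ± standard deviation, n = 12). The level of Gstp1 is uncertain in every tissue and has no place in this order. It had at most 3 counts in any library, and 41.8% of its 150-base windows occur also in Gstp2 or Gstp-ps. Gstp3, of the pi class, followed with 537 ± 61.5 CPM per kb, and Gsta3, of the alpha class, with 264 ± 46.6 CPM per kb. The spread of Gstm1 was the widest of these 3 in relation to its mean. Among the Ugt genes, which act on steroids, bilirubin and drugs, Ugt2b1 stood at 354 ± 71.5, Ugt2b36 at 326 ± 66.1 and Ugt2b5 at 278 ± 76.8 CPM per kb, and neighbours in this order differed by less than their standard deviations. Per kb of exon that no other gene shares, which raises the Ugt1a genes, Ugt2b36 ranked 3 and Ugt2b5 ranked 4 of the liver Ugt genes. Sult2a8, which sulfates bile acids, led its family with 266 ± 48.4 CPM per kb, ahead of the phenol sulfotransferase Sult1a1 at 133 ± 19.7 and of Sult1d1, which acts on catecholamines, at 42.6 ± 10.9 CPM per kb.

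By CPM per kb of exon, the 3 leading Ugt genes of kidney were not those of liver. Gstm1, Gstp3, Sult1d1 and Sult1a1 were among the 3 most abundant of their families in both organs. Ugt3a2, which transfers sugars other than glucuronic acid, was the leading kidney Ugt at 439 ± 39.1 CPM per kb, followed by Ugt2b38 at 283 ± 32.4 and Ugt2b37 at 49.6 ± 10.6 CPM per kb, which ranked 4 per kb of unshared exon. Sult1d1 (231 ± 18.4 CPM per kb) and Sult1c2 (75.9 ± 11 CPM per kb) stood far above Sult1a1 (9.03 ± 2.29 CPM per kb). Of the Gst genes, Gstp3 stood at 175 ± 41.4 and Gstm1 at 148 ± 15.4 CPM per kb, a gap smaller than the standard deviation of Gstp3, and Gsta2 was lower at 96.5 ± 13.4 CPM per kb.

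The control organs were compared over all genes by edgeR (quasi-likelihood F-test), and a gene was called at a Benjamini-Hochberg adjusted p under 0.05 and an absolute log2 difference over 1. Of 49 members tested, 43 (87.8%) were called, against 42.1% of the 22057 features tested. Liver was the higher organ for 30 of them and kidney for 13, where 17.9% and 24.2% of all features went these ways. Higher in kidney were Sult1c2 (18.4-fold), Ugt2b38 (17.1-fold), Ugt1a7c (8.56-fold), Gstm5 (7.92-fold), Gsta2 (7.02-fold), Gsto2, Sult2b1, Ugt2b37, Gstt2, Gstt4, Sult1d1, Ugt3a1 and Ugt3a2. Gsta3 was 25.2-fold and Sult1a1 21.7-fold higher in liver.

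The liver genes Ugt2b1, Ugt2b35, Ugt2b36 and Sult2a8 were close to the counting floor in kidney. Apart from CON CT20 replicate 1 their kidney levels reached at most 0.146, 0.133, 0.212 and 0.106 CPM, where 3 counts correspond to 0.0513 to 0.0932 CPM. In that single library they stood at 1.17, 1.03, 1.10 and 1.11 CPM. With library sizes in place of TMM scaling factors, which moved the median log2 difference of all features (liver over kidney) from -0.04 to -0.56, 42 members were called. Gsto1, Gstt1 and Gstz1 then fell short of the fold threshold, and Gstt3 and Ugt1a2 passed it. Ugt3a2 fell just under the threshold without control liver CT16 replicate 1 (or kidney CT16 replicate 2).

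**Figure D1:**
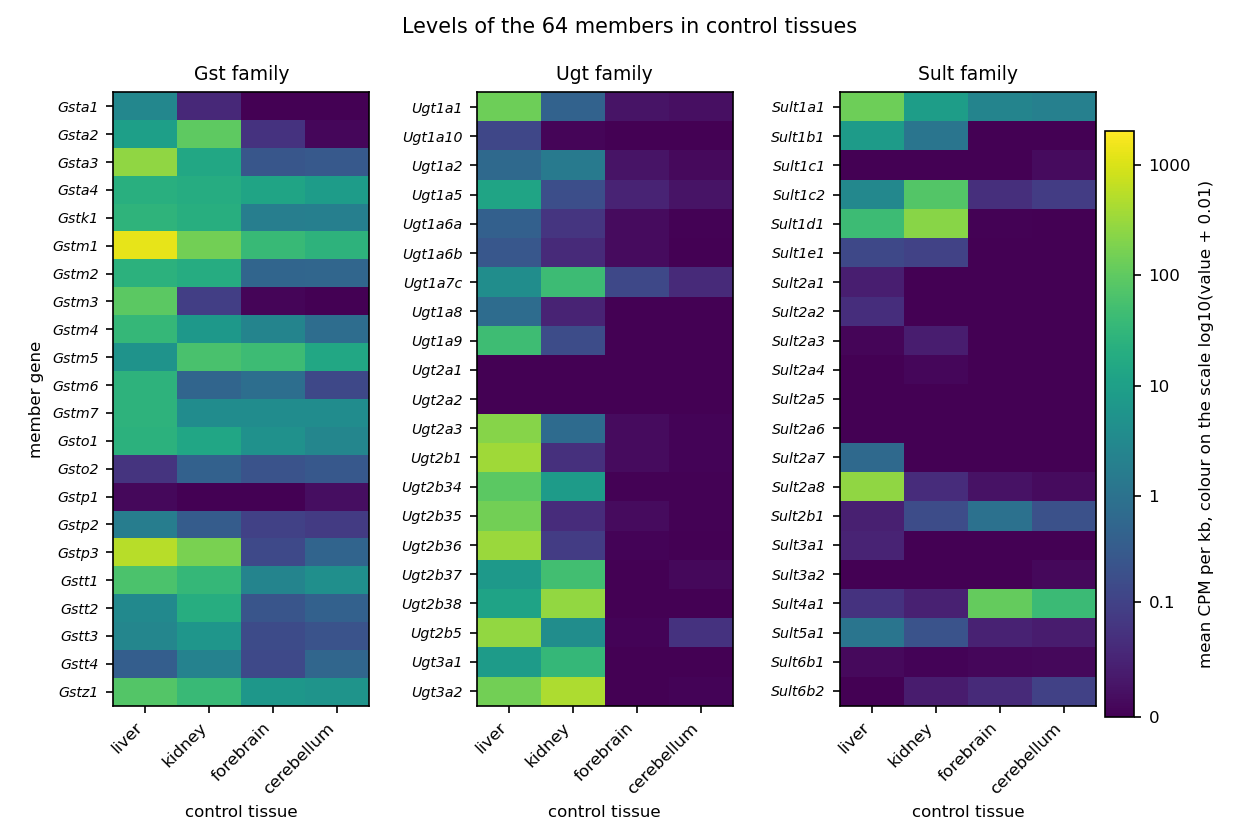
Mean level of each of the 64 members in the 12 control libraries of liver, kidney, forebrain and cerebellum, as CPM per kb of exon on a log colour scale. Liver has 39 members at or above 1 CPM per kb and kidney 28, whereas the Ugt rows are dark (low) in both brain tissues, where 0 of 21 reach this level.

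Sleep deprivation changed the liver members in both directions. A group of 6 Gst genes of the alpha and mu classes, Gsta1, Gsta2, Gsta4, Gstm1, Gstm3 and Gstm4, was lower in SD, together with Ugt1a5. Another 13 members were higher, 12 of them by log2 changes of 0.19 to 0.42, among them Gstk1, Gstz1, Ugt2a3, Ugt2b1, Ugt3a2 and Sult2a8, and the thirteenth, Sult1e1, by more but at very low counts. The test was an additive model of condition and time point over the 24 liver libraries, called at an adjusted p under 0.05. It called 20 of 48 members (41.7%), 13 higher and 7 lower, beside 18.2% of the 19708 features tested (9.42% higher and 8.8% lower). The median log2 change of the tested members was 0.10, and that of all features was 0.01.

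The counts by family are given without a test between families. Of 21 Gst genes tested, 6 fell and 5 rose, of 19 Ugt genes 1 fell and 4 rose, and of 8 Sult genes 0 fell and 4 rose. With library sizes in place of TMM factors, 7 Gst genes were lower and 2 higher, 4 Ugt genes lower and 1 higher, and 0 Sult genes lower and 2 higher. The summed level of all Gst genes went from 4462 ± 1000 CPM in CON to 2993 ± 348 CPM in SD (standard deviation, n = 12 each), with ranges of 3243 to 6358 and 2549 to 3627 CPM that overlap. The Ugt sum was 4440 ± 685 in CON and 4324 ± 376 CPM in SD, and the Sult sum was 1213 ± 196 and 1417 ± 136 CPM.

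Gsta1 (chr9:78230656-78242684, plus strand, GRCm38) had the largest change of the members tested. It ranged from 0.357 to 11.8 CPM in CON, with a median of 1.95, and from 0 to 0.387 CPM in SD, with a median of 0.0981. All but 1 of the 12 control libraries lay above the highest SD library, and the gene rested on few reads, with 12 to 575 counts in CON and 0 to 17 in SD. The log2 change was -3.96 ± 0.50 (standard error, SE, as for all log2 changes given with ±), with an adjusted p of 2.9e-05. Gsta1 shares long stretches with neighbours, as 73.7% of its 150-base windows occur also in Gsta2, Gm3776 or Gm10639, so its count is uncertain.

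Gsta2 (chr9:78331018-78355788, minus strand), an alpha class gene of the same cluster, had 3.07, 10.3 and 23.6 CPM as lowest, median and highest values in CON and 1.73, 3.02 and 7.32 CPM in SD. Its log2 change was -1.53 ± 0.27 (adjusted p = 0.00048), and 9 of 12 control libraries were above every SD library. The third alpha gene that fell, Gsta4 (chr9:78182774-78209349, plus strand), detoxifies 4-hydroxynonenal, a product of lipid peroxidation. It had 17.8, 26.5 and 42.8 CPM in CON and 12.2, 14.5 and 23.3 CPM in SD, a log2 change of -0.70 ± 0.11 (adjusted p = 0.0002). For Gsta4, 11 of 12 SD libraries lay below the lowest control. Gsta3, the most abundant alpha gene in liver, had a log2 difference of -0.04 and was not called.

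The mu class genes lie together on chromosome 3. Gstm1 (chr3:108012255-108017973, minus strand) had 907, 1788 and 3266 CPM in CON and 412, 577 and 1034 CPM in SD. Its log2 change was -1.50 ± 0.19 (adjusted p = 2.3e-05), a fitted 2.83-fold decrease, and 10 of 12 controls were above the highest SD library. Its mean, 1864 CPM in CON and 593 CPM in SD, was the largest single term of the Gst sum in CON.

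Gstm3 (chr3:107963696-107969283, minus strand) had 44.0, 110 and 275 CPM in CON and 22.9, 35.2 and 60.2 CPM in SD, a log2 change of -1.57 ± 0.23 (adjusted p = 9.6e-05). Gstm4 (chr3:108040408-108044894, minus strand) had 36.9, 55.8 and 89.6 CPM in CON and 20.2, 32.1 and 60.7 CPM in SD, a log2 change of -0.64 ± 0.14 (adjusted p = 0.0019). Every one of these 6 Gst genes had a lower mean in SD at 6 of 6 times, and in every one the groups overlapped. Of all features tested in liver, 0.335% had every SD library below every control.

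**Figure D2:**
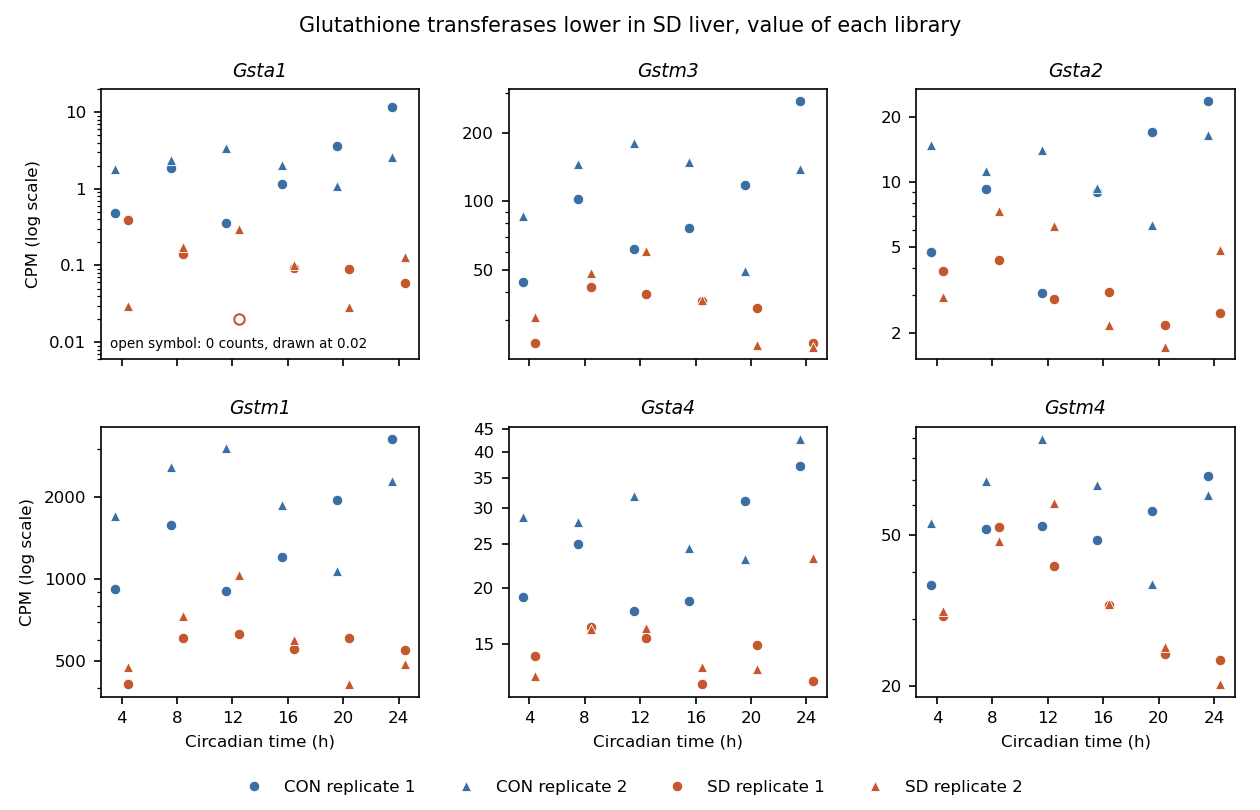
CPM (log scale) of the 6 Gst genes that were lower in SD liver, by circadian time, with CON in blue, SD in orange, replicate 1 as circles and replicate 2 as triangles. SD libraries sit low at every time, Gstm1 between 412 and 1034 CPM against 907 to 3266 CPM in CON, and the open symbol marks the Gsta1 library with 0 counts.

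Control replicates of these genes lay far apart, and in the same order. For Gstm1 the replicates had 923 and 1710 CPM at CT4, 907 and 3012 CPM at CT12, and 3266 and 2290 CPM at CT24. The SD replicates at CT4 had 413 and 475 CPM. Whether SD replicates lay closer together over all times was not tested. In CON, the same replicate was higher as for Gstm1 at 6 of 6 times for Gsta1, Gsta2, Gstm3 and Gstm4 and at 5 of 6 for Gsta4. A like order at every time was seen in 0.984% of all features tested in liver. In SD the order was less alike, with the same replicate higher as for Gstm1 at 6 of 6 times for Gstm3, 4 for Gsta1 and Gstm4 and 3 for Gsta2 and Gsta4. The source of the spread in CON was not tested.

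Ugt1a5, which shares its last exons with the other 8 genes of the Ugt1a cluster, was the single Ugt gene that fell. It had 20.8, 27.9 and 34.3 CPM in CON and 14.1, 17.8 and 32.4 CPM in SD, with a log2 change of -0.40 ± 0.11 (adjusted p = 0.016), and was lower at 5 of 6 times. Ugt1a6b, of the same cluster, had a log2 difference of -0.75 that missed the threshold (adjusted p = 0.060).

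Of the increases, 12 were at or below 0.42 on the log2 scale. Sult2a8 had 693, 829 and 1184 CPM in CON and 923, 1018 and 1266 CPM in SD, a log2 change of 0.39 ± 0.07 (adjusted p = 0.00038). Ugt2a3 went from 469 ± 97.7 to 555 ± 96.1 CPM (log2 change 0.39 ± 0.07). Both were higher at 6 of 6 times, with overlapping groups.

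Gstk1, the mitochondrial and peroxisomal transferase, rose by 0.32 ± 0.05 on the log2 scale, and Gstz1, the maleylacetoacetate isomerase of tyrosine breakdown, by 0.27 ± 0.06. Gstt2, of the theta class, rose by 0.40 ± 0.11, Gsto1, of the omega class, by 0.22 ± 0.07 and Gstp3 by 0.19 ± 0.05. Of the Ugt genes, Ugt3a1 rose by 0.34 ± 0.09, Ugt2b1 by 0.30 ± 0.09 and Ugt3a2 by 0.24 ± 0.06. Sult1d1 rose by 0.42 ± 0.13 and Sult1b1, which sulfates thyroid hormones and phenols, by 0.38 ± 0.10. For each of these 10 genes the ranges of the groups overlapped.

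Sult1e1, the estrogen sulfotransferase, had the largest increase of the tested members, at 1.55 ± 0.48 on the log2 scale (adjusted p = 0.028), but at very low levels. It had 0, 0.103 and 0.72 CPM in CON and 0.0585, 0.269 and 1.19 CPM in SD, where 3 counts correspond to 0.0614 to 0.0937 CPM in liver. The call of Sult1e1 was lost without any 1 of 5 libraries (CON CT8 replicate 1, CON CT24 replicate 2, SD CT4 replicate 1, SD CT20 replicate 2 or SD CT24 replicate 2), with log2 changes of 1.38 to 1.47 and adjusted p-values of 0.0511 to 0.0717. Gsto1 also lost its call without any 1 of 5 libraries (CON CT16 replicate 1, CON CT24 replicate 2, SD CT8 replicate 2, SD CT12 replicate 1 or SD CT24 replicate 2), at 0.19 to 0.21 and adjusted p-values of 0.0505 to 0.0678.

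Most of the small increases depended on the scaling of the libraries. The 7 decreases kept their calls, but library sizes alone move log2 changes downwards, so that fit could not test them. With library sizes alone the median of all features moved from 0.01 to -0.13, and the split of member calls went from 13 higher and 7 lower to 5 higher and 11 lower. Gstk1, Gstz1, Sult1e1, Sult2a8 and Ugt2a3 were still higher, and Gsto1, Gstp3, Gstt2, Sult1b1, Sult1d1, Ugt2b1, Ugt3a1 and Ugt3a2 were not called. Gstm6, Ugt1a6b, Ugt2b35 and Ugt2b36 were then called lower. DESeq2 called 23 members, 15 higher and 8 lower.

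**Figure D3:**
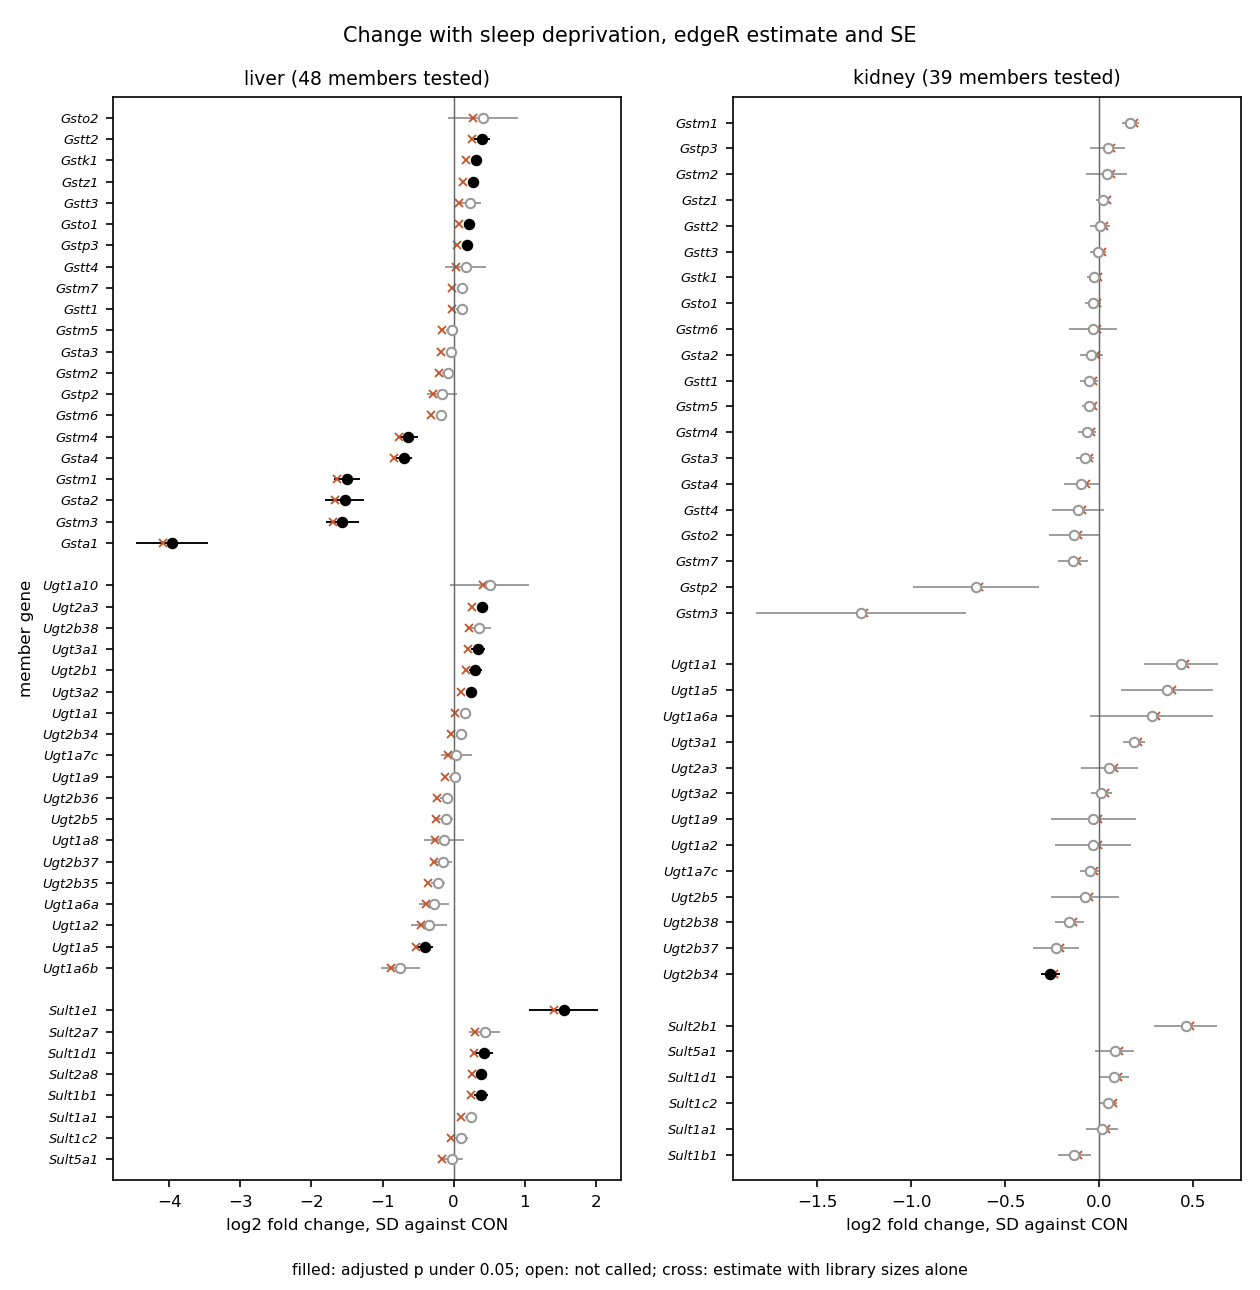
Log2 fold change of SD against CON for the 48 members tested in liver and the 39 tested in kidney, with SE bars. Filled points were called at an adjusted p under 0.05, and crosses show the fit with library sizes alone. The liver values reach -3.96 for Gsta1, whereas 1 kidney gene, Ugt2b34, is filled.

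Marker genes of other cell types moved with condition in liver. The summed leukocyte markers were between 365 and 639 CPM in CON and between 241 and 363 CPM in SD, ranges that do not overlap, and 5 of 5 tested markers were called lower, from -0.30 for Clec4f to -0.76 for Ptprc, while Cd68 was at 0. Of the hepatocyte markers 4 of 6, Alb, Apoa1, Apoh and Serpina1a, were called higher, by 0.24 to 0.28. So were 4 of 6 pericentral markers, of which Cyp2e1 rose by 0.51, and 2 of 4 stellate and stromal markers. The median log2 change of these 4 stellate and stromal markers was 0.04 and 0 were called lower. Their sum was not higher in SD, with means of 543 CPM in CON and 492 CPM in SD. Of 4 endothelial markers 1 was called lower, and none of 5 periportal or 4 cholangiocyte markers was called. Over all features tested in liver, 9.42% were called higher and 8.8% lower. Some member increases of 0.2 to 0.3 lost their call with library sizes alone. The part of these shifts in the member values was not tested. In bulk tissue, fewer cells of a type and less RNA per cell cannot be told apart.

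The genes around the conjugation step were read from lists of suppliers, exporters, regulators and other targets. The list of targets of NRF2 (Nfe2l2), the factor that switches on antioxidant and conjugation genes, had 9 tested genes. Of these, 7 were called lower in SD liver and 0 higher, where 8.8% and 9.42% of all features went these ways. The median log2 change of the list was -0.35, and the lists were chosen with earlier results of these data known. DESeq2 and the fit with the replicate number in the model also called 7 lower. So did library sizes alone, which move log2 changes downwards. Cbr3, a carbonyl reductase, had 1.04, 3.46 and 8.98 CPM in CON and 0.477, 0.731 and 1.33 CPM in SD, a log2 change of -2.16 ± 0.28 (adjusted p = 2.9e-05). Its control replicates followed the order of Gstm1 at 6 of 6 times, and those of the other 8 genes of the list at 3 to 5 of 6.

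The other NRF2 targets that fell were Slc7a11 (-1.42), the cystine importer, Srxn1 (-0.57), which repairs peroxiredoxins, G6pdx (-0.54), which supplies NADPH, Hmox1 (-0.35), which breaks down heme, Gclc (-0.31), the rate-limiting enzyme of glutathione synthesis, and Txnrd1 (-0.17), thioredoxin reductase. Nqo1 (-0.12, adjusted p = 0.79) and Gclm (0.12, adjusted p = 0.18), which are also on the list, were not called. Nqo1 was low in liver, with 8 to 35 counts in a CON library and 7 to 25 in an SD library. Nfe2l2 itself was lower by 0.26 on the log2 scale.

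In the lists of donor supply, Gclc was the 1 of 6 tested genes of the glutathione list that was called. Gss, on the same list, was low, with 7 to 27 counts in a CON liver library and 1 to 21 in an SD library. Ugdh, which makes UDP-glucuronate, fell by 0.44, and Slc35b1, also among the 4 tested genes of UDP-glucuronate supply, rose by 0.22. None of 4 tested genes of PAPS (sulfate donor) supply was called by edgeR, and DESeq2 called 1. Among 6 exporters, Abcc1 (-0.46), Abcc3 (-0.27) and Abcc4 (-0.41) fell and Abcc6 (0.21) rose. In the list of other conjugation genes 3 of 10 rose, namely Mgst1, Tpmt and Glyat, each by 0.22. With library sizes alone none of the rises in this paragraph was called.

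Of the receptors and transcription factors 9 of 14 rose, with log2 changes of 0.17 to 0.25, among them Nr1i2 (PXR, 0.25), Nr1i3 (CAR, 0.21), Ppara (0.21) and Tef (0.25). None of these was called higher with library sizes alone. CAR and PXR targets had 3 of 6 higher, Cyp2c29 (0.30), Cyp3a11 (0.44) and Por (0.44), of which 1 was called with library sizes alone. Of 5 AHR targets 1, Ahrr (-0.86), fell. Of 9 female-biased liver genes, Cyp2a4 (-2.63) was lower and Cyp3a44 (0.99) higher, and of 9 male-biased genes, Cyp2d9 (0.32), Hsd3b5 (0.51) and Slco1a1 (0.44) were higher, where 18.2% of all features were called.

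**Figure D4:**
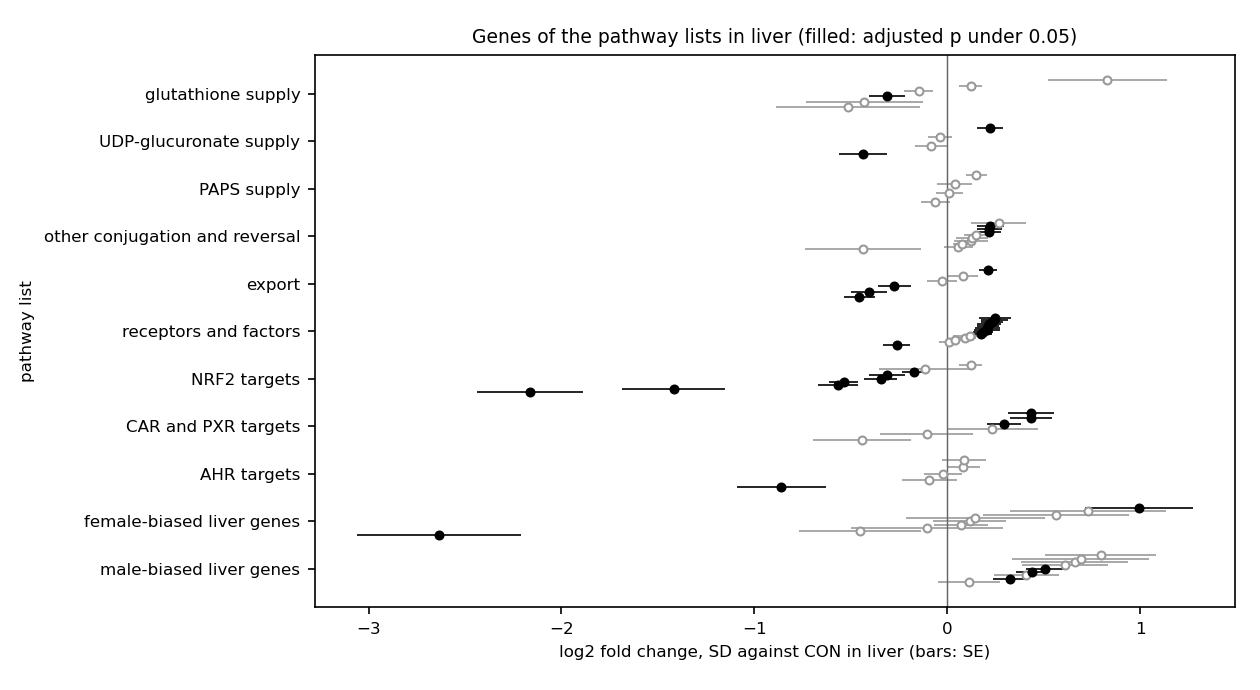
Log2 fold change (with SE) of SD against CON in liver for the genes of each pathway list, filled where called at an adjusted p under 0.05. The 7 called NRF2 targets lie below 0, from -0.17 for Txnrd1 to -2.16 for Cbr3, and called receptors and factors other than Nfe2l2 lie between 0.17 and 0.25.

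The sequences before the start sites of Gsta1, Gsta2 and Gsta3 are shown because the first pair fell in SD and the third, of the same class, did not. They are RefSeq windows of 250 bases on GRCm38.p6, at chr9:78230419-78230668 (plus strand) for Gsta1, chr9:78347146-78347395 (minus strand) for Gsta2 and chr1:21240335-21240584 (plus strand) for Gsta3. Capitals mark runs of at least 12 bases shared by Gsta1 and Gsta2, and in Gsta3 the match to TGACNNNGC, the core of the antioxidant response element.
Gsta1: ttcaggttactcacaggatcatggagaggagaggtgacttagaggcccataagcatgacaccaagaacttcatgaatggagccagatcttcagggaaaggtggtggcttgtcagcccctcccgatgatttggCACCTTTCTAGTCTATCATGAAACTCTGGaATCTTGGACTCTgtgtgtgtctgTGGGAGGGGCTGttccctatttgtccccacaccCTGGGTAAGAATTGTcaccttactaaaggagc
Gsta2: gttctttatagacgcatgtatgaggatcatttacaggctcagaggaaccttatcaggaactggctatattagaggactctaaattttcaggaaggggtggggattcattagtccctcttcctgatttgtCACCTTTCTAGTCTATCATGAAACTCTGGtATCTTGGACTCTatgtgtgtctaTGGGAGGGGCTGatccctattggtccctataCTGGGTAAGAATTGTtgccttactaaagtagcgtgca
Gsta3: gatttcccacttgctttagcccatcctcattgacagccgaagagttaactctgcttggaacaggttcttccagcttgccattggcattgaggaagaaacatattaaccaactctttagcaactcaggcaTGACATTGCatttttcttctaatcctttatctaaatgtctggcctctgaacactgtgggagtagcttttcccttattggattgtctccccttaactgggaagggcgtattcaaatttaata

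The Gsta1 and Gsta2 windows were identical at 191 of 263 aligned columns (72.6%), with a longest shared run of 29 bases. Gstm1, by its window at chr3:108017819-108018068, and Gstm3 had 58.0% identity, with a longest shared run of 10 bases. Pairs of Gsta1 or Gsta2 with Gstm1, Gstm3 or Gstm4, which are of different classes, had 43.0 to 48.7%. Of the 64 members 56 had such a window. The letters TGACNNNGC, or GCNNNGTCA for the other strand, occurred in 11.5% of the 27025 genes with a window and in 3 of the 56 members, Gsta3, Gstm5 and Gstm7. The match began 121 bases before the start in Gsta3, 42 in Gstm5 and 129 in Gstm7. The windows of Gsta1, Gsta2, Gstm1, Gstm3 and Gstm4 held none, and Gsta4 had no window. Sequence beyond the windows was not searched, so whether these genes carry an antioxidant response element further upstream was not tested. The palindrome CACGTG, bound by clock factors, occurred in 6.86% of genes and 0 of 56 members, and TTANGTAA (TTACNTAA on the other strand), bound by the factors of the Dbp and Tef family, in 2.44% of genes and in Sult1a1, Ugt1a9 and Ugt2b1.

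Kidney members changed little. Of 39 tested, 1 (2.56%) was called, beside 2.3% of 21528 features, and 7 had an unadjusted p under 0.05. Ugt2b34 had 31.6, 34.5 and 47.6 CPM in CON and 25.3, 29.9 and 35.2 CPM in SD, a log2 change of -0.26 ± 0.05 (adjusted p = 0.0056), and was lower at 6 of 6 times with overlapping groups. Gstm1, which fell in liver, stood at 219 CPM in CON kidney and 248 CPM in SD kidney, a log2 difference of 0.16 that edgeR did not call (adjusted p = 0.059) and DESeq2 did (adjusted p = 0.021). None of the genes of the pathway lists was called in kidney. Kidney leukocyte markers were also lower, between 43.4 and 75.6 CPM in CON and between 33.3 and 48 CPM in SD, with 2 of 4 tested markers called lower.

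The liver and kidney responses were compared by the tissue by condition term of a model over 48 libraries. It was called for 12 of 49 members (24.5%) and for 6.49% of all 22870 features tested. Gstm1 had a more negative response in liver than in kidney, with a log2 difference between the responses of -1.67 ± 0.20 (adjusted p = 1.7e-06), and so had Gsta2, with -1.48 ± 0.28 (adjusted p = 0.001). Gsta4 (-0.61) and Gstm4 (-0.58) also had more negative responses in liver, and Gstk1 (0.34), Gstz1 (0.25), Sult1b1 (0.51) and Ugt2b34 (0.35) more positive ones. Gstm3 and Ugt1a5, which were lower in SD liver, were not among the 12 called here. Gsta1 was at the counting floor in kidney, with 0 to 4 counts in a CON library and 0 to 3 in an SD library, so no kidney response was measurable to set beside its change in liver. Its fitted term was -3.98 ± 1.13 (adjusted p = 0.028), and the call was lost without any 1 of 5 kidney SD libraries (CT4, CT16, CT20 or CT24 replicate 1, or CT24 replicate 2). The terms of Sult2a8 (2.37) and Ugt2b36 (1.87) rested on kidney CON CT20 replicate 1. Without it they were 0.39 (adjusted p = 0.77) and 0.73 (adjusted p = 0.40).

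Over 24 h, the control liver had 17 of 47 members (36.2%) with a 24 h rhythm, where 9.13% of 19189 features were called. The test fitted a 24 h cosine curve to 12 libraries, so that each time rests on 2 libraries. Most of these genes peaked near CT24 or in the hours after it, and none peaked between Gstm7 at 9.14 h and Sult1c2 at 15.3 h. The rank test JTK_CYCLE called 0 members and 29 features in the same libraries, and leaving out single libraries gave 8 to 17 members, with 8 without CT24 replicate 1, 9 without CT8 replicate 2 and 10 without either CT16 replicate.

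Several Ugt2 genes and Ugt1a1 peaked near CT24. Ugt2b34 had replicate values of 291 and 330 CPM at CT12, the lowest time, and of 499 and 507 CPM at CT24, the highest, a fitted peak at 23.5 h and a 1.70-fold range from trough to peak (adjusted p = 0.0036). Ugt2b5 had 380 and 422 CPM at CT8 and 707 and 749 CPM at CT24, with a peak at 22.5 h and a range of 1.94-fold (adjusted p = 0.0079). Ugt2b36 (23.1 h), Ugt2a3 (23.3 h) and Ugt1a1 (23.5 h, the bilirubin transferase) peaked at like times with ranges of 1.42 to 1.73-fold.

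Several Gst genes peaked a few hours later. Gsta3 had 897 and 834 CPM at CT16 and 1365 and 1373 CPM at CT4, with a peak at 2.51 h and a 1.74-fold range (adjusted p = 0.0104). Gsto1 (1.10 h), Gstt1 (3.14 h), Gstt3 (3.48 h) and Gstk1 (4.20 h) had ranges of 1.53 to 1.93-fold. Gstt2 was apart from the other theta genes with a peak at 21.8 h and a 1.87-fold range. Ugt1a10 had a fitted 28.6-fold range on very few counts, and Ugt1a8 was high in both CT16 replicates (4.53 and 9.14 CPM), against at most 1.22 CPM in the other control libraries. Ugt1a2 and Ugt1a9 were the other members called. Gsta3, Gsto1, Gstt1, Ugt2b5 and Ugt2b34 were called whichever library was left out, and each other call was lost without at least 1 library (for Gstt3 without CT16 replicate 2, for Ugt2b36 and Ugt2a3 without CT24 replicate 1 among others).

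In SD liver 13 of 48 members (27.1%) were called rhythmic, and 12.9% of 18664 features. Circadian time runs together with time since deprivation in SD, so these curves cannot be told apart from a course after deprivation. Gsta3 (peak 4.59 h, 2.05-fold, adjusted p = 0.00077), Gstk1, Gstm7, Gstt2, Gstt3, Ugt1a8, Ugt2a3 and Ugt2b34 were called in both conditions. Gstm4 had 52.5 and 48.2 CPM at CT8 and 23.4 and 20.2 CPM at CT24 in SD, with a peak at 9.95 h and a 2.40-fold range (adjusted p = 0.00019). Gstm6 (10.9 h) and Gstm3 (11.1 h), neighbours on chromosome 3, peaked near it. JTK_CYCLE called Gstm4 and Gstm6 in SD. Gstk1, Gstt3, Sult1a1, Sult1d1, Ugt1a8 and Ugt2a3 each lost the call without some single library, and the other 7 did not. Sult1d1 (0.397 h) and Sult1a1 (1.57 h) were also called, and the 13 ranges from trough to peak were between 1.52-fold and, for the low Ugt1a8, 5.51-fold.

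A call in one condition and not in the other does not show a difference, so the rhythm terms were tested between conditions. The edgeR test called 0 of 48 members, beside 0% of 19708 features, and 7 members had an unadjusted p under 0.05. The DESeq2 test called 0 members and 4 features. Without the filter on low counts, 7 members were called (Gsta1, Gsta2, Gstm1, Gstm3, Gstm4, Ugt1a8 and Ugt2b5).

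Kidney had few rhythmic members. In CON kidney 2 of 39 (5.13%) were called, beside 4.1% of 20767 features, and in SD kidney 2 of 38 (5.26%), beside 1.94% of 21170 features. Sult1a1 had 10.4 and 8.13 CPM at CT12 and 18.6 and 16.8 CPM at CT4 in CON, with a peak at 0.296 h and a 1.89-fold range (adjusted p = 0.0073), and was also called in SD (21.9 h, 2.27-fold, adjusted p = 0.0108). Gstt2 had 59.5 and 62.5 CPM at CT8 and 114 and 105 CPM at CT20 in CON, with a peak at 18.5 h (1.70-fold, adjusted p = 0.00027). Gstt4 was called in SD alone (14.3 h, 2.54-fold, adjusted p = 0.0495), and this call was lost without any 1 library other than CT8 replicate 2 or CT12 replicate 1. JTK_CYCLE called 0 members in either condition. The rhythm terms differed between the conditions in 0 of 39 members and 0% of 21528 features by edgeR, with 2 members at an unadjusted p under 0.05, and in 0 by DESeq2.

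**Figure D5:**
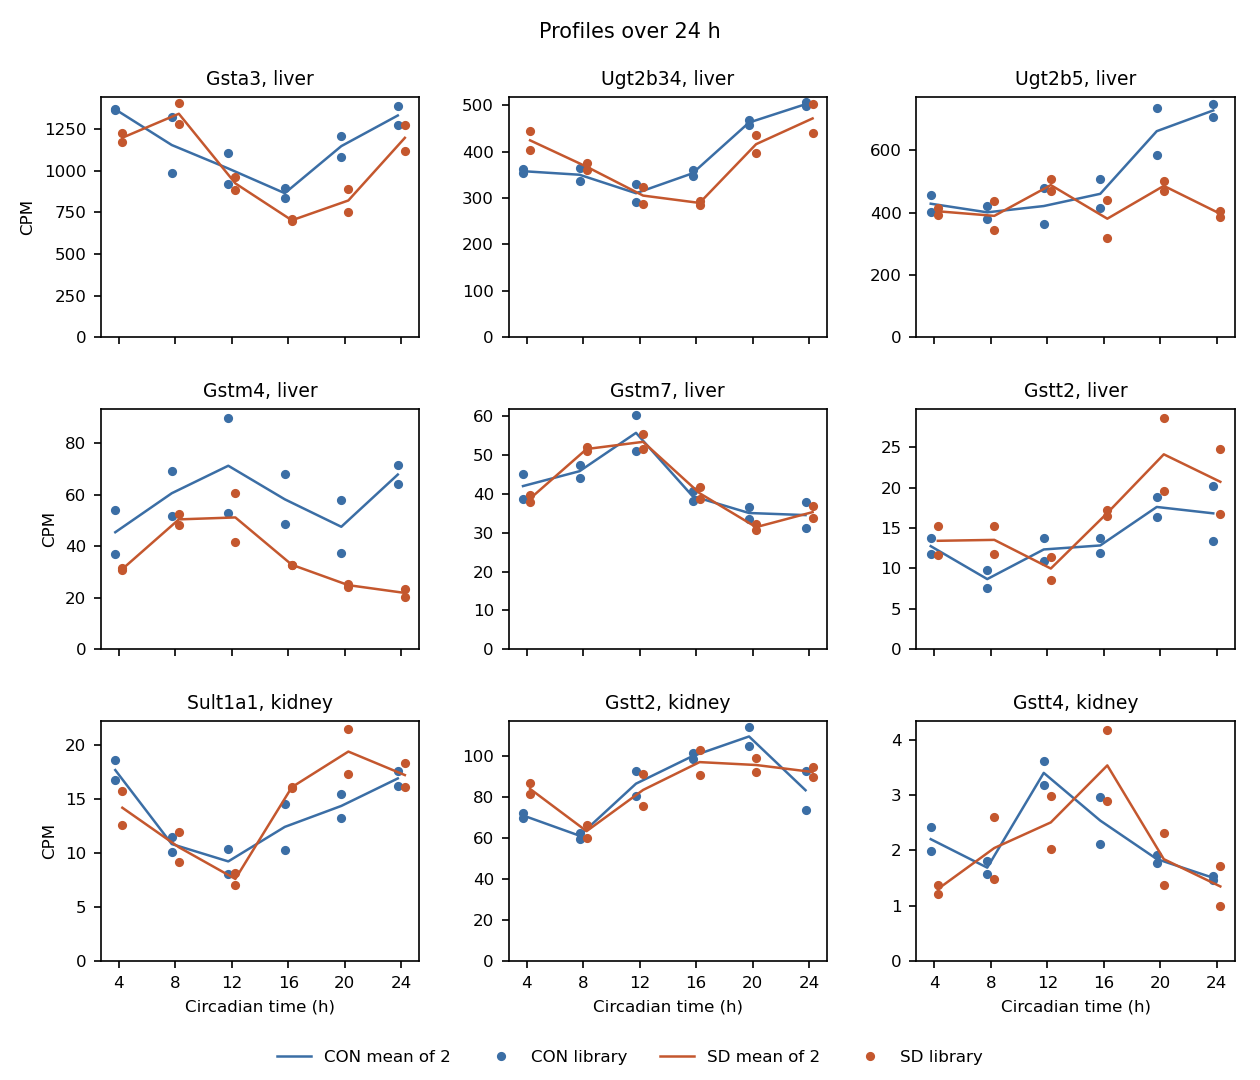
CPM by circadian time for rhythmic members of liver (Gsta3, Ugt2b34, Ugt2b5, Gstm4, Gstm7, Gstt2) and kidney (Sult1a1, Gstt2, Gstt4), with a point for each library, lines through the mean of 2 libraries, CON in blue and SD in orange. Ugt2b34 is highest in control liver at CT24 (499 and 507 CPM) and lowest at CT12 (291 and 330 CPM).

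The brain held few of these genes. In control forebrain 9 Gst, 0 Ugt and 2 Sult genes, and in control cerebellum 8 Gst, 0 Ugt and 2 Sult genes, reached 1 CPM per kb. Sult4a1, a sulfotransferase of neurons with no well-defined substrate, was the most abundant member in both, at 110 ± 12.9 CPM per kb in forebrain and 41.8 ± 4.99 CPM per kb in cerebellum (standard deviation, n = 12). Forebrain Gstm5 stood at 42.8 ± 5.01 and Gstm1 at 37.5 ± 5.28 CPM per kb, a gap close to 1 standard deviation, and Gsta4 at 12.3 ± 2.1 CPM per kb. In cerebellum the order was Gstm1 at 26.7 ± 4.51, Gstm5 at 14.9 ± 2.94 and Gsta4 at 8.50 ± 2.02 CPM per kb. Sult1a1 (2.48 ± 0.75 and 1.99 ± 0.47 CPM per kb) and Sult2b1, which sulfates cholesterol (0.94 ± 0.15 and 0.20 CPM per kb), followed in forebrain and cerebellum. In cerebellum CON CT8 replicate 1 alone, Sult4a1 (27.6 CPM per kb), Gstm1 (15.0), Gstm5 (6.86) and Gsta4 (3.92) were below every other control library. Over the other 11 libraries these genes stood at 43.1 ± 2.29, 27.8 ± 2.71, 15.6 ± 1.58 and 8.91 ± 1.49 CPM per kb.

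Between the brain regions, 9 of 22 members (40.9%) were called at an absolute log2 difference over 1, beside 36.1% of 23519 features. Forebrain was higher for 6 and cerebellum for 3, where 18.5% and 17.6% of features went these ways. Sult4a1 was 2.71-fold, Gstm5 2.98-fold, Gstm4 3.17-fold, Gstm6 6.63-fold, Sult2b1 4.85-fold and Ugt1a7c 4.27-fold higher in forebrain. Gstt4 was 4.02-fold, Gstp3 3.63-fold and Sult6b2 2.77-fold higher in cerebellum. Without cerebellum CON CT8 replicate 1 these 9 were still called, and Gsta2 was called too.

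Sleep deprivation changed no member past the threshold in the brain. In forebrain edgeR called 0 of 21 members, beside 0.0303% of 23078 features, with 1 member at an unadjusted p under 0.05 and log2 differences from -0.33 to 0.68. DESeq2 called 0 members there and 17 features. In cerebellum edgeR called 0 of 22 members and 0% of 22218 features, with 2 members at an unadjusted p under 0.05 and log2 differences from -0.29 to 0.37. DESeq2 called 0 members and 1 feature. Without CON CT8 replicate 1, edgeR called 0 of 23 members and 0 of 22828 features, with 2 members at an unadjusted p under 0.05. None of the genes of the pathway lists was called in either region.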

How the data were processed

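RNA was measured in 96 strand-specific total RNA libraries. The deposited files hold unnormalized counts for each gene: the authors trimmed reads with Trim Galore 0.6.4, aligned them with HISAT2 2.1.0 to GRCm38, kept mapping quality 60 with Samtools 1.9 and counted reverse-stranded pairs with featureCounts 1.6.4. The quality filter drops reads that fit several places, so near-identical copies such as Gsta1 and Gsta2 can be undercounted. The stated featureCounts options hold none for reads that overlap several genes, which the tool then leaves unassigned by default, so Ugt1a counts would come from unshared exons. The 5248 numbered loci of the table have no stated origin and were kept in library sizes and tests.

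CPM was computed as the count over the library total, and CPM per kb as CPM over the exonic length in GENCODE M21. The tests were quasi-likelihood F-tests (R 4.3.3, edgeR 4.0.16), with TMM factors, filterByExpr over condition and time groups and Benjamini-Hochberg adjustment over all features tested. SE is the log2 change divided by the root of its F statistic. DESeq2 1.42.0 and JTK_CYCLE (Python 3.11.15, scipy 1.17.1, pandas 2.3.3, numpy 2.4.6) were alternatives, beside library sizes alone, no filter on low counts, a replicate block and leaving out each library. The tests were checked on simulated counts. Promoter windows came from RefSeq (GRCm38.p6), and figures were drawn with matplotlib 3.10.9.

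The members and lists were chosen with earlier results of these data known. Named with values were members called in any SD comparison, in the interaction of liver and kidney or in a rhythm test (the 12 smallest adjusted p-values), the 3 most abundant genes of each family in each tissue, and called pathway genes. Ugt1a8, Sult1c2, Ugt1a2 and Ugt1a9 in control liver, Sult1a1 in SD liver, the genes called between control organs, Nqo1, Gclm, Ugt1a6b and kidney Gstm1 were named after their values were seen. Intervals and p-values measure the spread between libraries.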

Additional observations from a re-analysis of the deposited data

Results flagged for a closer look

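The change with sleep deprivation differed between liver and kidney, by the tissue by condition term of edgeR over 48 libraries (adjusted p under 0.05), for 12 members. Values are the log2 change in liver minus that in kidney. It was lower in liver for Gstm1 (-1.67), Gsta2 (-1.48), Gsta4 (-0.61) and Gstm4 (-0.58). The fitted term of Gsta1 (-3.98) sets its liver change beside a kidney with 0 to 4 counts in a library, where no response was measurable. It was higher in liver for Sult1e1 (2.62), Sult2a8 (2.37), Ugt2b36 (1.87), Sult1b1 (0.51), Ugt2b34 (0.35), Gstk1 (0.34) and Gstz1 (0.25).

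Sult2a8 and Ugt2b36 were at or near the counting floor in kidney apart from CON CT20 replicate 1, which also held the most Alb. Their terms were 0.39 (adjusted p = 0.77) and 0.73 (adjusted p = 0.40) without it, 1.80 and 1.64 (both adjusted p = 0.093) without kidney SD CT20 replicate 1, and 1.91 (adjusted p = 0.072) and 1.5 (adjusted p = 0.092) without kidney SD CT20 replicate 2. Sult1e1 lost its call in 7 of 48 fits that left out 1 library (liver SD CT4 replicate 1, CT20 replicate 2 or CT24 replicate 2; kidney CON CT4 replicate 1, CT8 replicate 1 or CT16 replicate 2; or kidney SD CT16 replicate 1), with terms of 2.29 to 2.54 and adjusted p-values of 0.0509 to 0.0684, and Gsta1 in 5 of 48, all without a kidney SD library, with terms of -3.95 to -3.74 and adjusted p-values of 0.0503 to 0.0604.
With library sizes alone Gstz1, Sult1b1 and Ugt2b34 were not called in this comparison, and Ugt1a5 was (-0.93, adjusted p = 0.017).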

How the results depend on the processing

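The counts of called members that moved by more than 1.5 times are given here, and the cause was not tested. Without the filter on low counts, 4 members were called in SD against CON in kidney, 33 rhythmic in CON liver, 11 in CON kidney, 25 in SD liver and 9 in SD kidney, 7 in the rhythm difference of liver and 20 in the comparison of the liver and kidney responses. JTK_CYCLE called 0 in CON liver, 0 in CON kidney, 2 in SD liver and 0 in SD kidney. SD against CON in kidney had 2 calls with DESeq2 and 2 with library sizes alone. Leaving out single libraries gave 18 to 23 calls in liver and 1 to 2 in kidney for SD against CON, and for rhythms 8 to 17 in CON liver, 9 to 16 in SD liver, 2 to 5 in CON kidney and 1 to 6 in SD kidney.

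Replicate numbers were not used to pair the samples in the main tests. The correlation of deviations of same-numbered libraries was over 0.1 in 11 of 24 pairs of conditions (-0.36 to 0.46). It was over 0.1 in 6 of 12 pairs of liver and kidney (-0.06 to 0.39) and in 1 of 12 pairs of forebrain and cerebellum (-0.04 to 0.13). These values cannot show whether same-numbered libraries came from the same mice. With the replicate block, 18 members were called in SD against CON in liver (Sult1d1, 0.40 with adjusted p = 0.053, and Sult1e1, 1.45 with adjusted p = 0.063, were not), 1 in kidney, 14 rhythmic in CON liver, 14 in SD liver, 2 in CON kidney and 1 in SD kidney. In the liver and kidney comparison Sult2a8 (2.12, adjusted p = 0.080), Ugt2b36 (1.62, adjusted p = 0.075) and Sult1e1 (adjusted p = 0.057) then lost their calls, and Ugt1a5 (adjusted p = 0.014), Gstm7 (adjusted p = 0.042) and Ugt2b38 (adjusted p = 0.038) gained one.

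No value of a member called and named by the rule changed sign under the alternatives run, while some uncalled values near 0 did with library sizes alone. Each time point rests on 2 libraries, so single times were not tested. Members under the filter in a tissue, such as Gstp1 with at most 3 counts in a library, were not compared. Gstp2, with 49.4% of its 150-base windows shared with other genes, reached 147 counts in a library. Outside the members, Dbp had at most 5 counts and Cd68 had 0 in any library. Whether depth, the removal of reads that fit several genes or another step left such genes low was not tested. Groups of kidney libraries rest on titles that go against other labels. The counts of Gsta1, Gsta2 and the Ugt1a genes can miss reads shared between copies.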
